A study of Mus musculus with 27 samples.

Results

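The genes described here were 10 genes of iron handling and metal binding in the mouse liver, taken by name from a table of 21850 genes: the hepcidin genes Hamp and Hamp2, the hepcidin-inducing ligand Bmp6, the transferrin receptors Tfrc and Tfr2, the iron exporter Slc40a1 (ferroportin), the ferritin subunits Fth1 and Ftl1, and the metallothioneins Mt1 and Mt2. All 10 were present in the table. They were measured by bulk RNA-seq in 27 libraries of C57BL/6 mouse liver cells, 3 libraries for each of 9 conditions. Freshly isolated hepatocytes had not been cultured. Hepatocyte organoids (HepOrgs) are 3D cultures grown from primary hepatocytes. At passage 2 they were kept for 1 or 2 weeks (7 or 14 days) either in HM-Wnt, an expansion medium with growth factors, WNT and R-spondin conditioned media, nicotinamide, the GSK3 inhibitor CHIR and the TGF-beta receptor inhibitor A83-01, or in MM, which keeps only the basal medium, WNT conditioned medium and a ROCK inhibitor. Both media contain B27 supplement and N-acetylcysteine. Periportal assembloids combine HepOrgs with cholangiocytes and portal mesenchymal cells in MM, with few (homeostatic) or many (fibrotic-like) mesenchymal cells, for 1 or 2.5 weeks (7 or 18 days). All samples carry the genotype WT in the labels except fresh hepatocyte replicate 3, which is titled WT but has the genotype MDR2-het in its characteristics. The differences of the 10 genes from fresh hepatocytes were therefore also tested without it, and some of those values are given. List genes, shares of all genes called and the Hamp2 ratios are given only with it. The labels give no age of the mice and do not say whether replicates came from separate mice, so p-values measure the spread between these libraries, which may be technical.

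Hepcidin is a small peptide hormone that hepatocytes release when body iron is high. It binds ferroportin, the only known cellular iron exporter, and causes its breakdown. Endothelial cells of the liver sinusoid make most of the BMP ligands that switch hepcidin on through SMAD proteins, and the transferrin receptor TFR2, with HFE and hemojuvelin, tunes that signal in hepatocytes. TFRC takes up transferrin-bound iron, and ferritin, built of heavy (FTH1) and light (FTL1) chains, stores it. Iron regulatory proteins bind a stem-loop, the iron-responsive element, in several of these mRNAs and set their translation or stability. Metallothioneins are cysteine-rich proteins that bind zinc and copper, and the metal-sensing factor MTF1 acts on metal response elements in their promoters. Glucocorticoids also raise metallothionein expression in liver.

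The sequences behind these controls are shown for the members whose levels the results turn on. The promoter windows come from RefSeq on GRCm38.p6 and were located in GRCm39 by exact match. Each is printed 5' to 3' on the strand of the gene, from 250 bases before to 30 bases after the RefSeq transcript start. For these 4 genes that start lies inside the wider GENCODE gene span given with each gene further on. In the hepcidin pair, capitals mark the BMP response element core GGCGCC in Hamp (chr7:30643425-30643704, minus strand) and the bases aligned with it in Hamp2 (chr7:30623577-30623856, minus strand). In the metallothionein pair, capitals mark the metal response element cores, TGCACNC or TGCGCNC on either strand, in Mt1 (chr8:94905467-94905746, plus strand) and Mt2 (chr8:94898996-94899275, plus strand).
Hamp: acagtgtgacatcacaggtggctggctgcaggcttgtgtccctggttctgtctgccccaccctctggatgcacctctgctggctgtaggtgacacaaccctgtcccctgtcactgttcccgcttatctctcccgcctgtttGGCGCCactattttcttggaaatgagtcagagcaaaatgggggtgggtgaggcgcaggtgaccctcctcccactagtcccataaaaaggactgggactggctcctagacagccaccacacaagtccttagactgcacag
Hamp2: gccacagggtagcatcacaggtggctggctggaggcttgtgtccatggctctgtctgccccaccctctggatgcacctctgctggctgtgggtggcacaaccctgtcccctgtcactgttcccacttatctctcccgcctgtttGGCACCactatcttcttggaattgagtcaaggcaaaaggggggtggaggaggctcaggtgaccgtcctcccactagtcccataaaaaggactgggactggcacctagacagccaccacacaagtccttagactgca
Mt1: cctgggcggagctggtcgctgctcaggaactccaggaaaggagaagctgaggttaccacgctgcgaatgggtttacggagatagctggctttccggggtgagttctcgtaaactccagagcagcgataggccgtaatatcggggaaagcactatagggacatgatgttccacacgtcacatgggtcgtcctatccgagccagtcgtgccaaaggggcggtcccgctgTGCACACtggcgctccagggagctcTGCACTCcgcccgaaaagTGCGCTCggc
Mt2: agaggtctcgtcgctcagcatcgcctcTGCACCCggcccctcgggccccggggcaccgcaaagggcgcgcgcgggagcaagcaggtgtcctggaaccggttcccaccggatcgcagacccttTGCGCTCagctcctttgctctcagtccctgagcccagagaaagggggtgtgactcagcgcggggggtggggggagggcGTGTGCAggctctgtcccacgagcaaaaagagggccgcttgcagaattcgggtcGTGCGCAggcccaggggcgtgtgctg

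A global alignment of the full 300-base Hamp and Hamp2 windows had 303 columns, of which 276 were identical, 21 mismatched and 6 gapped (91.1% identical). The core GGCGCC was found once in Hamp, starting at position -109 with the RefSeq start as 0, and not in Hamp2, where the aligned bases at position -106 read GGCACC. The STAT site TTCNNNGAA, searched on both strands, was found once in each window. Among 32851 RefSeq promoter windows of the same length, 11.9% held GGCGCC and 8.3% held TTCNNNGAA. Mt1 held 3 metal response element cores and Mt2 held 4, and at least 1 such core was present in 25.7% of all windows, at least 3 in 1.97% and at least 4 in 0.517%. RefSeq windows were found for 9 of the 10 members, Slc40a1 being the exception. These matches describe letters in the windows and not occupied sites.

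Iron-responsive elements were searched in 10 member transcripts of GENCODE M39 as a bulged C, 5 base pairs around a 6-base loop CAGNGN, and 5 matching bases, and 4 of the 10 genes held one. The loop is in capitals in the 17-base elements of the 5' UTRs of Fth1 (chr19:9960102-9960118, plus strand), Ftl1 (chr7:45109209-45109225, minus strand) and Slc40a1 (chr1:45964631-45964647, minus strand), where the element is known to act on translation. Tfrc held 5 elements, all in its 3' UTR (plus strand, from chr16:32449984-32450000 to chr16:32450534-32450550), where they are known to act on mRNA stability, and they are shown because Tfrc is the member whose mRNA level iron regulatory proteins set most directly.
Fth1: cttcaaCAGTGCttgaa
Ftl1: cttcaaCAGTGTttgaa
Slc40a1: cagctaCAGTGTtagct
Tfrc element 1: cagtgaCAGAGTtcact
Tfrc element 2: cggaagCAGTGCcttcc
Tfrc element 3: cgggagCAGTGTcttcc
Tfrc element 4: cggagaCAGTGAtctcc
Tfrc element 5: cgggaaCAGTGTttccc

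Libraries had 30289364 to 65348596 counted reads. Levels are given as the deposited TPM, an abundance scaled by gene length and library size. The length behind these TPM was within 5% of the whole gene span for 80.8% of 21705 genes matched to GENCODE M39, introns included, so levels of different genes are also compared per exon base. Differences are log2 fold changes of counts from edgeR's quasi-likelihood test with TMM scaling, with standard error and Benjamini-Hochberg adjusted p over all genes tested, and a gene is called at an adjusted p under 0.05. In 3 assembloid libraries (homeostatic 1 week replicate 2, fibrotic-like 1 week replicate 3 and fibrotic-like 2.5 weeks replicate 2) the summed TPM of 10 hepatocyte markers was 8633, 13890.4 and 35777, against 51516 to 102189.9 in the other 9 assembloids, and cholangiocyte markers summed to 4338, 4928 and 4121. The first of these had 8465 genes with a count, where the others had 14016 to 16018. In MM HepOrgs at 1 week the same markers summed to 30285 to 88427 TPM, a range that holds the 35777 TPM of the third library. The name hepatocyte-poor used below therefore ranks these 3 libraries among the assembloids only. Some assembloid results are also given without these 3 libraries, an exclusion chosen after seeing the data. The others are given with all assembloid libraries only. In bulk RNA, fewer cells of a type and less RNA per cell cannot be told apart.

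**Figure D1:**
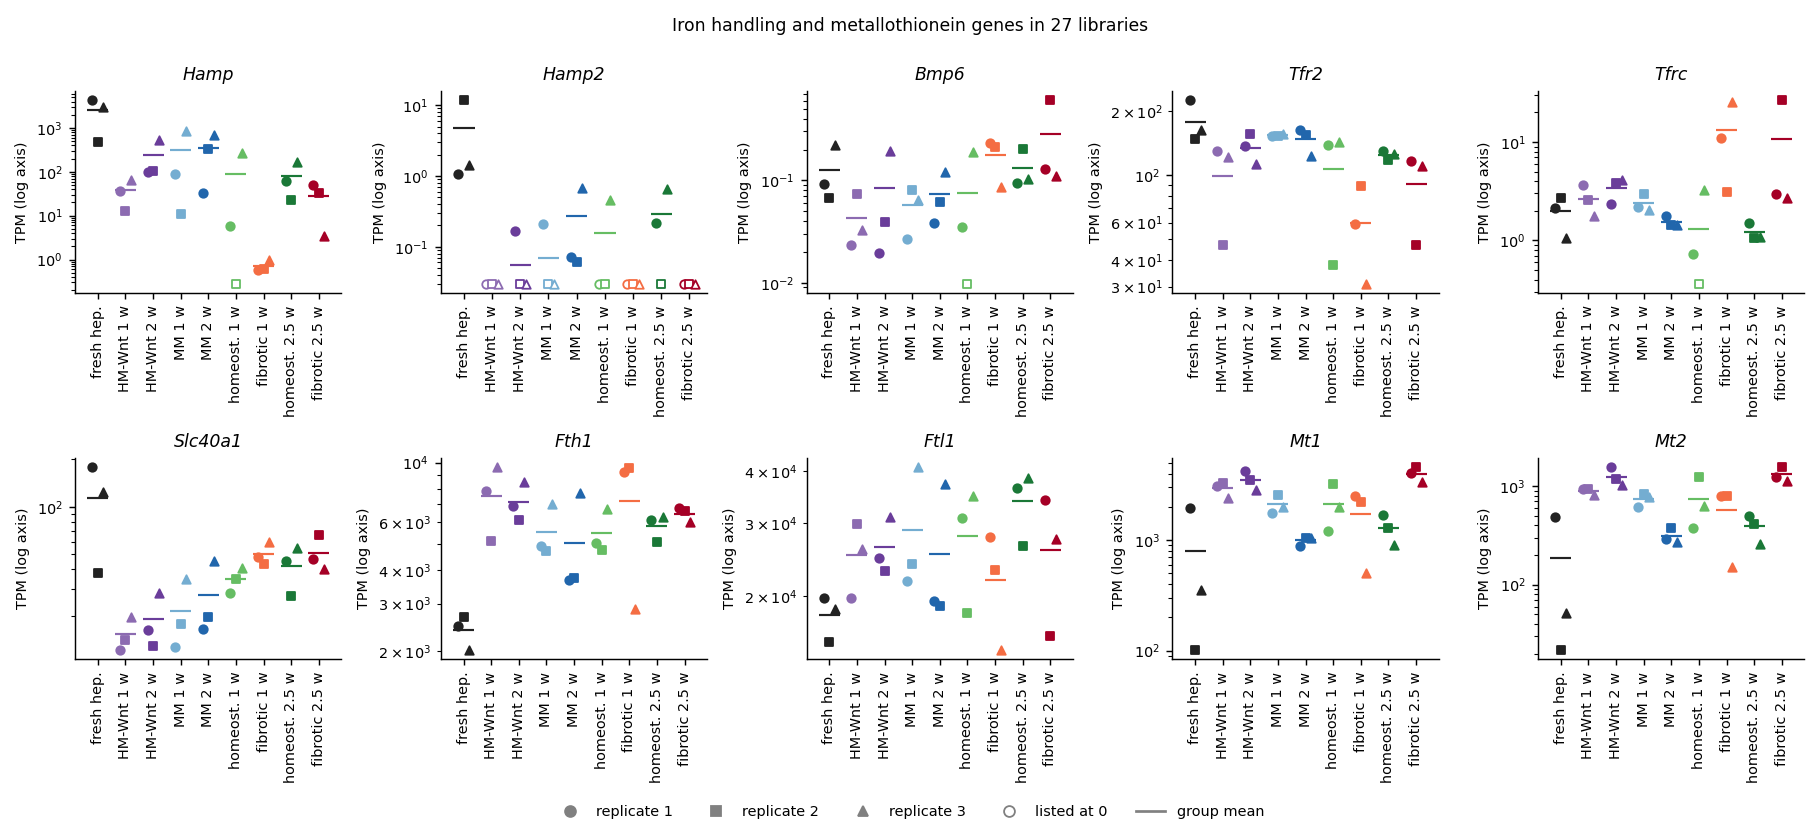
TPM of each of the 10 genes (log axis) in the 27 libraries, by condition; marker shapes stand for replicate numbers, lines for group means, and open symbols at the bottom for libraries at 0. Hamp, Hamp2 and Slc40a1 have their highest group means in fresh hepatocytes, and Fth1 and both metallothioneins have their lowest there.

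Hamp (ENSMUSG00000050440, chr7:30641766-30643990, minus strand), the main hepcidin gene, was highest in fresh hepatocytes. The 3 fresh libraries had 4256, 487 and 3044 TPM. HM-Wnt HepOrgs had 35.7, 12.6 and 66.1 TPM at 1 week and 99.3, 105 and 531 TPM at 2 weeks. MM HepOrgs had 87.8, 11.2 and 834 TPM at 1 week and 32.5, 339 and 695 TPM at 2 weeks. HM-Wnt HepOrgs at 1 week lay wholly below the fresh libraries, while replicate 3 of the other 3 HepOrg groups, the highest library of its group each time, lay above fresh replicate 2. For HM-Wnt the difference from fresh hepatocytes was -6.64 ± 1.54 (edgeR adjusted p = 0.0031) after 1 week and -4.27 ± 1.38 (adjusted p = 0.019) after 2 weeks. In MM HepOrgs it was -3.86 ± 1.35 (edgeR adjusted p = 0.034) at 1 week and -3.41 ± 1.32 (adjusted p = 0.056) at 2 weeks, so that Hamp fell in the first 3 groups and was not called in the fourth. Without the fresh replicate labelled MDR2-het, the MM difference at 1 week was -3.72 (edgeR adjusted p = 0.064) and no longer called, and without fresh replicate 1 its adjusted p was 0.084. That call was also lost without MM 1 week replicate 1 (adjusted p = 0.10) or 2 (adjusted p = 0.070). The HM-Wnt call of Hamp at 1 week held without any single library, and that at 2 weeks was lost without HM-Wnt 2 weeks replicate 1 (edgeR adjusted p = 0.069) or 2 (adjusted p = 0.066). The MM difference at 2 weeks was called without fresh replicate 2 (-3.87, edgeR adjusted p = 0.038) or MM 1 week replicate 2 (adjusted p = 0.031) or 3 (adjusted p = 0.032).

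In assembloids Hamp was uneven between libraries. Homeostatic assembloids had 5.96, 0 and 268 TPM at 1 week and 60.4, 22.2 and 164 TPM at 2.5 weeks. Fibrotic-like assembloids had 0.567, 0.623 and 0.974 TPM at 1 week, from 6 to 8 counts a library, and 48.8, 33.3 and 3.39 TPM at 2.5 weeks. The library at 0 was the homeostatic one with few genes detected, and a count of 0 there allows up to 0.085 CPM (the count scaled by library size). Across the 9 conditions the mean fell from 2596 ± 1924 TPM (SD, n = 3) in fresh hepatocytes to 0.721 ± 0.220 TPM in fibrotic-like assembloids at 1 week, and of the 8 neighbouring pairs in this order only the last, fibrotic-like at 2.5 weeks against 1 week, had libraries that did not overlap.

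Hamp2 (ENSMUSG00000056978, chr7:30621797-30624106, minus strand), the second hepcidin gene of the mouse, was a low-count gene throughout. Fresh hepatocytes had 1.08, 11.7 and 1.43 TPM, from 20, 147 and 23 counts, so replicate 2, the lowest fresh library for Hamp, was the highest for Hamp2. No cultured library passed 9 counts, and all 3 libraries were at 0 for HM-Wnt HepOrgs of 1 week and for fibrotic-like assembloids at both times. Set against the floor of 3 counts over a group, Hamp2 in fresh hepatocytes was at least 56.3-fold higher than in HM-Wnt after 1 week, and at least 72.6- and 67.1-fold higher than in the fibrotic-like assembloids at 1 and 2.5 weeks. The ratio was 81.9 (95% counting interval 22.4 to 681) for HM-Wnt at 2 weeks, 53.0 (20.4 to 196) and 18.6 (9.91 to 39.5) for MM at 1 and 2 weeks, and 25.2 (12.6 to 59.3) and 16.9 (9.63 to 32.2) for homeostatic assembloids at 1 and 2.5 weeks. These intervals cover counting error only, and the values rest on fresh replicate 2, which held 147 of the 190 fresh counts. Without it the bounds were at least 17.2-fold for HM-Wnt at 1 week and at least 22.2- and 20.5-fold for the fibrotic-like assembloids, and the ratios were 25.1, 16.2, 5.7, 7.72 and 5.16 in the order just given. Hamp2 passed the low-count filter only in the fit with fresh hepatocytes, and only through them, so its call there (edgeR adjusted p from 0.0027 to 0.018) adds nothing to these counts. In the 11 libraries where both genes had a count, Hamp exceeded Hamp2 by 20.5- to 2770-fold per exon base (median 284). The 2 genes are close copies and both lie under the lncRNA Gm44662 on the other strand, and the handling of multimapping reads and of strand is not given in the sources used here, so reads exchanged between them cannot be separated.

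Bmp6 (ENSMUSG00000039004, chr13:38529065-38684280, plus strand), a BMP ligand that induces hepcidin, had 57 to 239 counts in fresh libraries and 0 to 384 counts over the 24 cultured ones. Its TPM, from 0 in homeostatic 1 week replicate 2 to 0.605 in fibrotic-like 2.5 weeks replicate 2, are small because they are divided by the long span of this gene. Fresh hepatocytes had 0.0924, 0.0678 and 0.221 TPM, HM-Wnt HepOrgs at 1 week 0.0233, 0.0733 and 0.0330 TPM, and these overlapped. The call there, -1.95 ± 0.77 (edgeR adjusted p = 0.049), held in only 4 of the 15 fits that left out 1 library: those without fresh replicate 2, HM-Wnt 1 week replicate 2, or HM-Wnt 2 weeks replicate 1 or 3. Without fresh replicate 3 the difference was -1.32 (edgeR adjusted p = 0.20). All 8 neighbouring conditions in the order of Bmp6 levels overlapped. Its annotated end overlaps Txndc5 on the other strand, and reads of the 2 cannot be told apart there.

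Tfr2 (ENSMUSG00000029716, chr5:137568087-137586343, plus strand), the iron-sensing transferrin receptor of hepatocytes, lay between 31.0 and 226 TPM in all 27 libraries. Fresh hepatocytes had 226, 148 and 164 TPM, HM-Wnt HepOrgs 131, 46.9 and 122 TPM at 1 week and 137, 156 and 113 TPM at 2 weeks. MM HepOrgs had 153, 154 and 157 TPM at 1 week and 164, 155 and 124 TPM at 2 weeks. On the count scale Tfr2 fell against fresh hepatocytes by 1.42 ± 0.30 (edgeR adjusted p = 0.0016) and 1.2 ± 0.30 (adjusted p = 0.0043) after 1 and 2 weeks of HM-Wnt, and by 0.82 ± 0.30 (adjusted p = 0.040) in MM HepOrgs at 1 week. At 2 weeks in MM the difference was -0.77 ± 0.29 (edgeR adjusted p = 0.053). The scale changed these calls: on log2(TPM + 1) with limma the differences of HM-Wnt at 2 weeks and MM at 1 week were -0.39 (adjusted p = 0.27) and -0.19 (adjusted p = 0.62). On that scale the median of all genes lay 0.40 to 0.68 above fresh hepatocytes. The MM call at 1 week held in 8 of the 15 fits that left out 1 library, and was lost without fresh replicate 1 (edgeR adjusted p = 0.15) or 3 (adjusted p = 0.061), HM-Wnt 2 weeks replicate 1, any MM 1 week replicate or MM 2 weeks replicate 2. The MM difference at 2 weeks was called without HM-Wnt 1 week replicate 2 (adjusted p = 0.019).

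Tfrc (ENSMUSG00000022797, chr16:32427556-32451612, plus strand), the general transferrin receptor, was low in hepatocytes and HepOrgs. It had 2.14, 2.73 and 1.05 TPM in fresh hepatocytes and 1.42 to 4.08 TPM over the 12 HepOrg libraries, and it was not called against fresh hepatocytes in any HepOrg group. Without fresh replicate 3, MM HepOrgs at 2 weeks were called lower (-1.17, edgeR adjusted p = 0.022). Per exon base, Tfr2 exceeded Tfrc by 1.28- to 202-fold (median 59.6) in the 26 libraries with a Tfrc count. Its mRNA carries the 5 iron-responsive elements shown above.

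Slc40a1 (ENSMUSG00000025993, chr1:45947211-45965683, minus strand), the gene of ferroportin, was lower in every HepOrg group than in fresh hepatocytes. Fresh libraries had 180.0, 38.1 and 124 TPM. HM-Wnt HepOrgs had 12.3, 14.2 and 19.9 TPM at 1 week and 16.3, 13.0 and 28.3 TPM at 2 weeks, all below the lowest fresh library. MM HepOrgs had 12.7, 17.9 and 34.9 TPM at 1 week and 16.6, 19.9 and 45.1 TPM at 2 weeks, and only replicate 3 at 2 weeks passed the lowest fresh library. Against fresh hepatocytes Slc40a1 fell by 3.38 ± 0.51 (edgeR adjusted p = 0.00013) and 3.39 ± 0.51 (adjusted p = 0.00011) in HM-Wnt at 1 and 2 weeks. In MM it fell by 3.04 ± 0.50 (edgeR adjusted p = 0.00036) at 1 week and by 2.59 ± 0.49 (adjusted p = 0.0011) at 2 weeks. It was called in all 4 comparisons under all 24 alternatives, including without fresh replicate 3 (-3.32, -3.35, -2.98 and -2.51 in the same order).

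Ferroportin is also a gene of macrophages, which recycle the iron of red cells, and fresh hepatocyte libraries held such cells. The summed TPM of 10 Kupffer cell markers was 35.9, 302 and 136 in fresh replicates 1 to 3, where Slc40a1 was 180.0, 38.1 and 124 TPM, so the fresh library with the fewest Kupffer marker reads had the most Slc40a1. All 10 markers had counts in fresh hepatocytes. In HM-Wnt HepOrgs their sum was 0.257 to 0.811 TPM with 4 of 10 markers at 0 in the whole group at 1 week and 6 of 10 at 2 weeks, and Clec4f and Timd4 were at 0 in all 12 HepOrg libraries. Since 6 of the 10 passed the count filter only through the fresh libraries, counts of calls over them are not given. In MM HepOrgs the sum was 0.120 to 12.3 TPM except in replicate 3 at 2 weeks, where it was 176 TPM, and this library had the highest Slc40a1 of the HepOrgs. The part of these cells in the Slc40a1 difference was not tested.

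**Figure D2:**
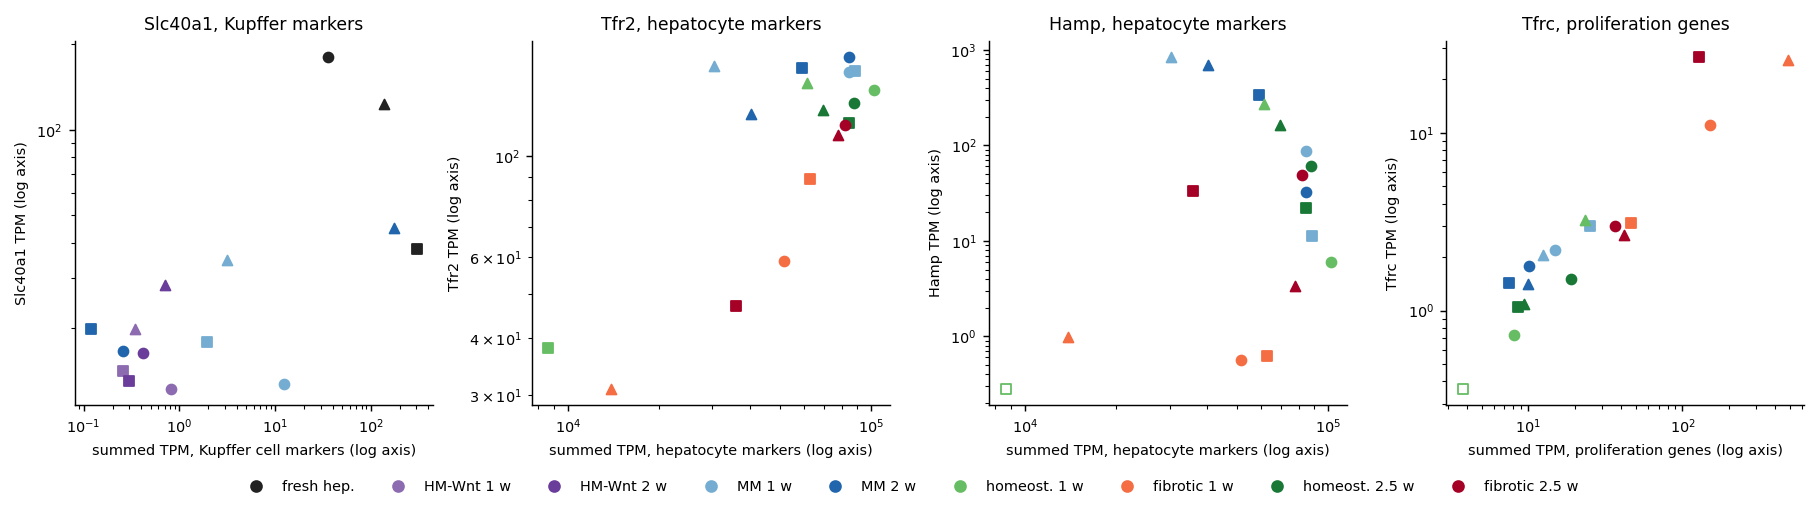
Members against marker sums (TPM, log axes), one point per library: Slc40a1 against Kupffer cell markers in fresh hepatocytes and HepOrgs, Tfr2 and Hamp against hepatocyte markers and Tfrc against proliferation genes in MM HepOrgs and assembloids. The fresh libraries have both high Slc40a1 and high Kupffer sums but in opposite order among themselves, and the highest Tfrc levels go with the highest proliferation sums.

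Fth1 (ENSMUSG00000024661, chr19:9957911-9962462, plus strand), the ferritin heavy chain, was higher in HM-Wnt HepOrgs than in fresh hepatocytes. Fresh libraries had 2471, 2682 and 2022 TPM. HM-Wnt HepOrgs had 7868, 5113 and 9665 TPM at 1 week and 6905, 6129 and 8485 TPM at 2 weeks, and MM HepOrgs 4920.2, 4702 and 7031 TPM at 1 week and 3665, 3720.3 and 7746 TPM at 2 weeks. Every HepOrg library lay above the highest fresh library in TPM. Fth1 rose by 1.09 ± 0.25 (edgeR adjusted p = 0.0033) and 0.74 ± 0.25 (adjusted p = 0.025) in HM-Wnt at 1 and 2 weeks, and the MM differences were 0.56 (adjusted p = 0.087) and 0.52 (adjusted p = 0.12). At 2 weeks in HM-Wnt the call held in 11 of the 15 fits that left out 1 library, and was lost without fresh replicate 1 (edgeR adjusted p = 0.062) or 3 (adjusted p = 0.10) or HM-Wnt 2 weeks replicate 1 (adjusted p = 0.056) or 3 (adjusted p = 0.060). On log2(TPM + 1) with limma Fth1 was called higher in MM too, by 1.2 (adjusted p = 0.0050) and 0.99 (adjusted p = 0.016). On that scale the median of all genes also lay 0.47 and 0.40 above fresh hepatocytes, and 55.6% and 48.6% of the genes tested were called. Fresh hepatocytes, at 2391 ± 337 TPM (SD, n = 3), were the lowest of the 9 conditions and did not overlap the next, MM HepOrgs at 2 weeks at 5044 ± 2341 TPM, while the other 7 neighbouring pairs overlapped.

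Ftl1 (ENSMUSG00000050708, chr7:45107367-45109308, minus strand), the light chain, had the highest TPM of the 10 genes and moved little. Fresh hepatocytes had 19782, 15490.0 and 18637 TPM, and the 12 HepOrg libraries ranged from 18914 to 40941 TPM, but on the count scale it was called in none of the comparisons. Per exon base Ftl1 exceeded Fth1 by 2.73- to 10.4-fold over the 27 libraries (median 5.75). Reads of Ftl1 may be shared with close copies: over the 27 libraries the 2 genes whose log2 CPM followed it most closely were Ftl1-ps1 (r = 0.988) and Grik3 (r = 0.986), and Grik3 (chr4:125384202-125607966) holds the processed pseudogene Ftl2-ps (chr4:125398081-125398632) within its span. Grik3 had 3378 to 17392 counts a library, and what share of them came from ferritin sequence was not tested.

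Mt1 (ENSMUSG00000031765, chr8:94905710-94906955, plus strand) and Mt2 (ENSMUSG00000031762, chr8:94898819-94900207, plus strand), the widely expressed metallothioneins, were uneven among the fresh libraries. Fresh hepatocytes had 1952, 102 and 356 TPM of Mt1 and 479.9, 21.8 and 51.9 TPM of Mt2, so replicate 1 stood far above the others for both. HM-Wnt HepOrgs had 3077, 3313 and 2424 TPM of Mt1 at 1 week and 4252, 3468 and 2842 TPM at 2 weeks, all above the highest fresh library. Against fresh hepatocytes the Mt1 difference in HM-Wnt was 1.41 ± 0.69 (edgeR adjusted p = 0.11) at 1 week and 1.37 ± 0.69 (adjusted p = 0.11) at 2 weeks. For Mt2 it was 1.81 ± 0.75 (edgeR adjusted p = 0.061) at 1 week and 1.98 ± 0.76 (adjusted p = 0.042) at 2 weeks, the only metallothionein call against fresh hepatocytes. That call held in only 2 of the 15 fits that left out 1 library, those without fresh replicate 1 and without MM 2 weeks replicate 3, and the difference was 1.46 (edgeR adjusted p = 0.072) without fresh replicate 2 and 1.54 (adjusted p = 0.12) without replicate 3. MM HepOrgs at 1 week differed by 0.82 (edgeR adjusted p = 0.35) for Mt1 and 1.42 (adjusted p = 0.14) for Mt2.

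Fresh replicate 1 decided these calls. Without it Mt1 was higher than in fresh hepatocytes by 3.21 (edgeR adjusted p = 0.00021) and 3.17 (adjusted p = 0.0002) in HM-Wnt at 1 and 2 weeks and by 2.64 (adjusted p = 0.00088) and 1.65 (adjusted p = 0.012) in MM. Mt2 was higher by 4.10 (edgeR adjusted p = 9.1e-06), 4.27 (adjusted p = 6.2e-06), 3.72 (adjusted p = 2.2e-05) and 2.61 (adjusted p = 0.00022) in the same order. The scale mattered as well: on log2(TPM + 1) with limma and all fresh libraries, HM-Wnt was higher by 2.81 (adjusted p = 0.0044) and 3.07 (adjusted p = 0.0018) in Mt1 and by 3.43 (adjusted p = 0.0018) and 3.87 (adjusted p = 0.00053) in Mt2. On that scale the median of all genes lay 0.40 and 0.68 higher in HM-Wnt at 1 and 2 weeks, and 55.9% and 71.3% of the genes tested were called. In MM at 2 weeks on counts with all fresh libraries the Mt1 difference was -0.17 (edgeR adjusted p = 0.87), a sign that turned on log2(TPM + 1) (1.26), and that of Mt2 was 0.30 ± 0.73 (adjusted p = 0.77). Glucocorticoid-responsive genes were measured beside them. Of all genes, 24.8%, 25.7%, 21.3% and 20% were called lower and 24.9%, 26.1%, 21.5% and 19.7% higher than in fresh hepatocytes in the 4 HepOrg groups (HM-Wnt at 1 and 2 weeks, MM at 1 and 2 weeks). Of the 8 glucocorticoid-responsive genes 4, 5, 4 and 4 were lower and 1, Pdk4, was higher. The most abundant was Tat, a liver enzyme of tyrosine breakdown, with 745, 1424 and 977 TPM in fresh replicates 1 to 3 and group means of 23.5 to 68.9 TPM in the HepOrgs, so the fresh library highest in metallothioneins was the lowest in Tat. Their part in the metallothionein levels was not tested.

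Counted over the members, the comparison with fresh hepatocytes called 6 of 10 genes in HM-Wnt HepOrgs at 1 week (1 higher, 5 lower) where 49.7% of all 13405 genes were called (24.9% higher, 24.8% lower). After 2 weeks in HM-Wnt it called 6 of 10 (2 higher, 4 lower) where 51.8% were (26.1% higher, 25.7% lower). In MM HepOrgs it called 4 of 10 at 1 week, all lower, against 42.8% of all genes (21.5% higher, 21.3% lower), and 2 of 10 at 2 weeks, both lower, against 39.7% (19.7% higher, 20% lower). Each count includes Hamp2, which passed the filter only through the fresh libraries and had to differ, and leaves 5, 5, 3 and 1 of the other 9 genes without it. The members' median log2 fold change, Hamp2 included, was -0.77, -0.74, -0.57 and -0.82 in these comparisons, beside 0.02, 0.03, 0.004 and -0.009 over all genes. These medians were not taken without Hamp2, so the forced fall of Hamp2 is part of them. The 4 comparisons share the same 3 fresh libraries and are not independent. On log2(TPM + 1), calls over all genes leaned higher: 4126 higher and 1284 lower in HM-Wnt at 1 week, where the count scale gave 3341 and 3325, 5829 and 1069 against 3500 and 3442 at 2 weeks, and for MM 4466 and 914 against 2883 and 2855, then 3806 and 892 against 2641 and 2680.

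**Figure D3:**
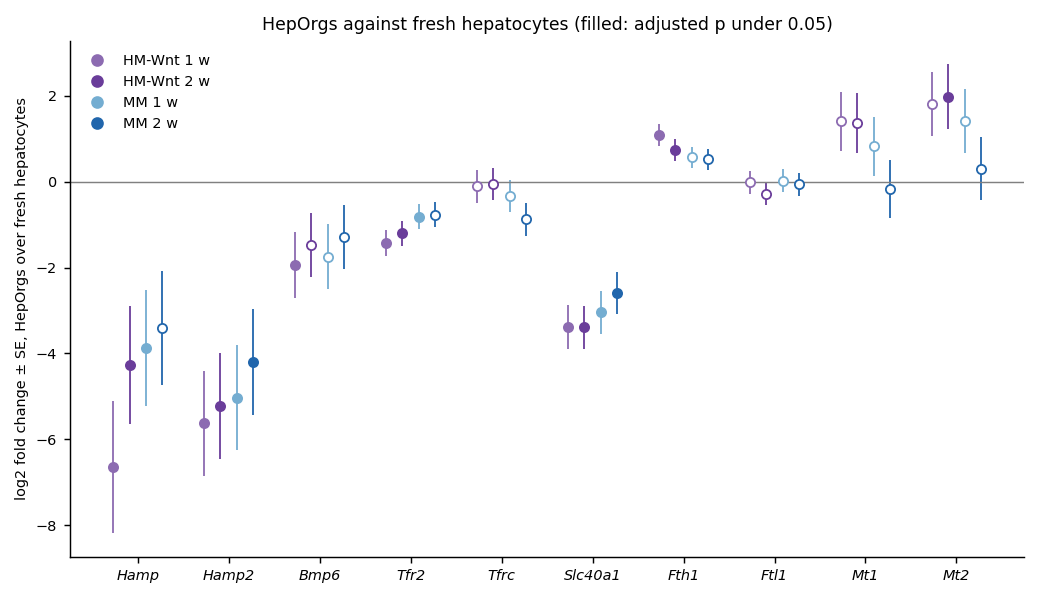
Log2 fold change (± SE) of each of the 10 genes in the 4 HepOrg groups against fresh hepatocytes, from edgeR on counts; filled symbols have an adjusted p under 0.05. Slc40a1 is filled and below 0 in all 4 groups, and Hamp in the HM-Wnt groups and the earlier MM group. Fth1 is filled and above 0 in HM-Wnt HepOrgs. Hamp2 is filled and below 0 in all 4 too, but passed the count filter only through the fresh libraries and had to differ.

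In MM, the medium also used for the assembloids, metallothionein levels were lower than in HM-Wnt at 2 weeks. At 2 weeks MM HepOrgs had 884, 1042 and 1056 TPM of Mt1 and 291, 375 and 272 TPM of Mt2, where HM-Wnt HepOrgs had 4252, 3468 and 2842 TPM and 1541, 1167 and 1015 TPM, with no overlap. Mt1 fell by 1.52 ± 0.27 (edgeR adjusted p = 0.0057) and Mt2 by 1.67 ± 0.25 (adjusted p = 0.0029). At 1 week MM HepOrgs had 1773, 2542 and 2001 TPM of Mt1 and 610.2, 829 and 777 TPM of Mt2, and the differences from HM-Wnt were -0.59 ± 0.26 (edgeR adjusted p = 0.21) and -0.40 (adjusted p = 0.36). Averaged over both times Mt1 fell by 1.06 ± 0.19 (edgeR adjusted p = 0.0031) and Mt2 by 1.03 ± 0.18 (adjusted p = 0.0026). The test of the change of this difference between the 2 times gave -0.93 (edgeR adjusted p = 0.67) for Mt1 and -1.27 ± 0.35 (adjusted p = 0.67) for Mt2, where edgeR called 0% of all genes and 951 had an unadjusted p under 0.05, 2 of them members, and DESeq2 called 43 genes and 0 members. Both genes kept their calls at 2 weeks and over both times without any single library and lost them only when all 27 libraries shared 1 fit.

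**Figure D4:**
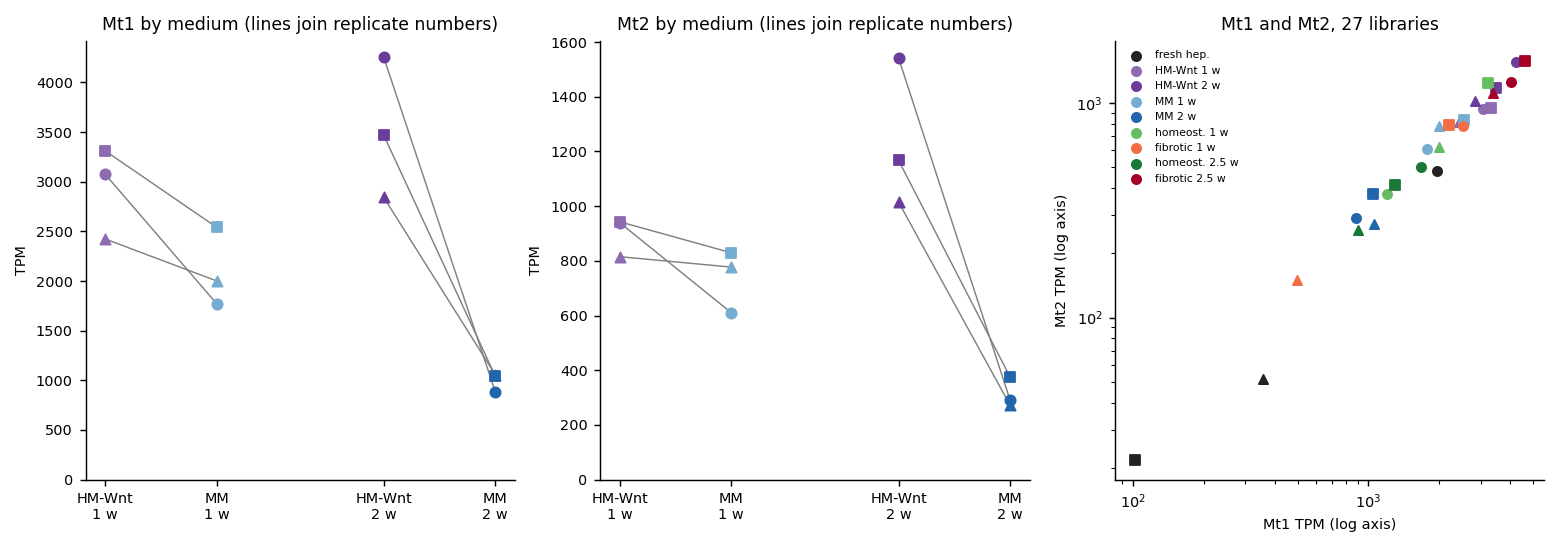
Mt1 and Mt2 (TPM) in HM-Wnt and MM HepOrgs with lines joining libraries of the same replicate number, and Mt1 against Mt2 over the 27 libraries (log axes). At 2 weeks all 3 MM libraries lie below all 3 HM-Wnt libraries for both genes, and Mt1 and Mt2 rise and fall together across all conditions.

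In the fit without a replicate block these were the only members called between the media: 0 of 9 tested at 1 week (2.98% of all genes were called, 1.76% higher and 1.22% lower; 1 member had an unadjusted p under 0.05, and DESeq2 called 0), 2 of 9, both lower, at 2 weeks (11.5% of all genes, 6.84% higher and 4.61% lower) and the same 2 over both times (21.5%, 11.5% higher and 10% lower). At 1 week 2921 of all 12989 genes had an unadjusted p under 0.05, and DESeq2 called 1420. Hamp2 was not tested because its counts were too low. The level of Hamp differed by 2.77 (edgeR adjusted p = 0.23) at 1 week and 1.83 (adjusted p = 0.16) over both times, with a wide spread within each medium. Slc40a1 differed by 0.33 (edgeR adjusted p = 0.62) at 1 week, 0.81 ± 0.36 (adjusted p = 0.16) at 2 weeks and 0.57 (adjusted p = 0.13) over both times. With the replicate number as a block, Slc40a1 was higher in MM by 0.75 ± 0.18 (adjusted p = 0.017) at 2 weeks and by 0.52 ± 0.13 (adjusted p = 0.014) over both times, where 19.6% and 28.9% of all genes were called. Tfrc differed by -0.81 ± 0.32 (edgeR adjusted p = 0.12) at 2 weeks, and 8 of 10 proliferation genes fell over both times. Time in culture called no member in HM-Wnt (0% of all genes; 0 members and 1134 of 12989 genes had an unadjusted p under 0.05, and DESeq2 called 0 members and 13 genes) or in MM (0.0154% of all genes; 2 members had an unadjusted p under 0.05). In MM Mt1 differed by -0.97 ± 0.26 (edgeR adjusted p = 0.20) and Mt2 by -1.10 ± 0.25 (adjusted p = 0.14) between 1 and 2 weeks, and DESeq2 called both (adjusted p = 0.028 and 0.0058). For that change 1337 genes had an unadjusted p under 0.05 with edgeR, and DESeq2 called 308.

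Assembloids were compared by the number of mesenchymal cells they were built with. The summed TPM of 9 mesenchyme markers did not separate the groups at 1 week. It was 56.6 to 4562 in homeostatic and 1483 to 2929 in fibrotic-like assembloids, so the highest homeostatic library exceeded every fibrotic-like one. At 2.5 weeks the sums were 78.9 to 138 and 525 to 2904, with no overlap. With all 12 libraries edgeR called 0 of 9 members, and 0% of 14255 genes, at 1 week, at 2.5 weeks or over both times. At an unadjusted p under 0.05 there were 2, 0 and 3 members and 2012, 944 and 2678 genes, and DESeq2 called 1, 0 and 1 members and 867, 273 and 1766 genes. The DESeq2 call was Hamp both times. The differences of Hamp were -7.27 ± 2.27 (edgeR adjusted p = 0.29) at 1 week, -2.17 (adjusted p = 1) at 2.5 weeks and -4.72 (adjusted p = 0.13) over both times. Without the 3 hepatocyte-poor libraries, Hamp was lower in fibrotic-like assembloids, by a log2 fold change of -7.84 (edgeR adjusted p = 0.036) at 1 week and of -4.92 (adjusted p = 0.025) over both times, where 17.7% and 26.1% of all genes were called. Leaving out homeostatic 1 week replicate 2 alone was enough for these calls of Hamp (edgeR adjusted p = 0.043 and 0.011) and, over both times, for Tfr2 (adjusted p = 0.029) and Tfrc (adjusted p = 0.037).

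Tfr2 was 58.8, 88.9 and 31.0 TPM in fibrotic-like and 139, 38.1 and 144 TPM in homeostatic assembloids at 1 week, and 117, 47.0 and 111 TPM against 131, 118 and 126 TPM at 2.5 weeks. The lowest library of the fibrotic-like groups and of the homeostatic group at 1 week was in each case the hepatocyte-poor one. The difference was -1.72 (edgeR adjusted p = 0.35) at 1 week and -1.30 (adjusted p = 0.23) over both times with all libraries. Without the 3 hepatocyte-poor libraries it was -1.75 ± 0.26 (edgeR adjusted p = 0.0069) and -1.08 ± 0.17 (adjusted p = 0.0054). In the libraries that remained at 1 week the hepatocyte markers summed to 51516 and 63014 TPM in fibrotic-like and 102189.9 and 61413 TPM in homeostatic assembloids, and their part in the Tfr2 difference was not tested. Ftl1 was 30769.8, 18230.0 and 34793 TPM in homeostatic and 27671, 23093 and 14831 TPM in fibrotic-like assembloids at 1 week (-1.18, edgeR adjusted p = 0.44), and without the 3 libraries the difference was -1.15 (adjusted p = 0.049).

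Tfrc had its highest levels in fibrotic-like assembloids but only in some libraries. At 1 week these had 11.1, 3.12 and 25.5 TPM beside 0.729, 0 and 3.23 TPM in homeostatic assembloids, and at 2.5 weeks 2.98, 26.6 and 2.67 TPM beside 1.5, 1.05 and 1.09 TPM. The differences were 2.31 (edgeR adjusted p = 0.53), 2.20 (adjusted p = 1) and, over both times, 2.26 (adjusted p = 0.29). The 2 libraries above 20 TPM were hepatocyte-poor ones. The summed TPM of 10 proliferation genes was 152, 46.5 and 484 in fibrotic-like assembloids at 1 week and 36.5, 128 and 41.5 at 2.5 weeks, the same order of libraries as Tfrc at 1 week and the same highest library at 2.5 weeks. Its part in the Tfrc levels was not tested.

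Mt1 and Mt2 were highest in fibrotic-like assembloids at 2.5 weeks, with 4022, 4622 and 3383 TPM of Mt1 and 1245, 1570.2 and 1112 TPM of Mt2. Homeostatic assembloids of the same age had 1678, 1296 and 906 TPM and 499.9, 413 and 256 TPM, with no overlap. The differences were 1.08 (edgeR adjusted p = 0.82) and 1.18 (adjusted p = 0.79) with all libraries, and 1.25 ± 0.21 (adjusted p = 0.043) and 1.33 ± 0.20 (adjusted p = 0.038) without the 3 hepatocyte-poor ones, where 1.08% of all genes were called. At 1 week homeostatic assembloids had 1197, 3212 and 1998 TPM of Mt1 and 378, 1231 and 624 TPM of Mt2, and fibrotic-like ones 2518, 2201 and 499 TPM and 783, 784 and 149 TPM, which overlapped. The change of the mesenchymal effect between the times was 1.88 ± 0.81 for Mt1 and 2.03 ± 0.85 for Mt2 (edgeR adjusted p = 1 for both, with 0 members called, 2 at an unadjusted p under 0.05, and 0 by DESeq2). For that change 278 genes had an unadjusted p under 0.05 with edgeR, and DESeq2 called 0. Slc40a1 lay between 27.2 and 65.8 TPM and Fth1 between 2871 and 9566 TPM over the 12 assembloids, and neither was called. Time in culture called 0 members in either kind of assembloid (0% of all genes). At an unadjusted p under 0.05 there were 0 and 3 members and 936 and 122 genes in homeostatic and fibrotic-like assembloids. DESeq2 called 0 members, and 12 and 0 genes.

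Against MM HepOrgs, the closest culture, fibrotic-like assembloids at 1 week again differed most in Hamp and Tfr2. The differences were -9.01 ± 2.39 (edgeR adjusted p = 0.065) and -2.20 ± 0.67 (adjusted p = 0.088), with 0 of 9 members called beside 0.751% of all genes. At an unadjusted p under 0.05 there were 5 members and 3004 of 14388 genes. DESeq2 called 2 members, Hamp and Tfr2, and 14.5% of all genes. Without the 3 hepatocyte-poor libraries, Hamp (-9.06, edgeR adjusted p = 0.019), Tfr2 (-1.83 ± 0.26, adjusted p = 0.00076) and Mt2 (-0.67, adjusted p = 0.044) were lower, where 30.5% of all genes were called. At the late time fibrotic-like assembloids (18 days) set against MM HepOrgs (14 days) differed by 1.47 ± 0.50 (edgeR adjusted p = 0.18) in Mt1 and 1.5 ± 0.53 (adjusted p = 0.20) in Mt2, with 0 members and 0% of all genes called. There 2 members and 2065 genes had an unadjusted p under 0.05, and DESeq2 called 0 members and 1101 genes. Without the 3 hepatocyte-poor libraries the differences were 1.65 ± 0.22 for both (edgeR adjusted p = 0.0042 and 0.0044), where 9.65% of all genes were called. Homeostatic assembloids differed from MM HepOrgs in no member at either time with edgeR (0% of all genes). At an unadjusted p under 0.05 there were 0 members, and 2251 genes at 1 week and 319 late. DESeq2 called 0 members, and 897 genes at 1 week and 24 late.

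Genes of the same pathways, from lists of textbook members, were counted beside the 10 genes. Among 7 BMP and SMAD target genes, 5, 3, 5 and 6 were lower and 0 higher than in fresh hepatocytes in HM-Wnt at 1 and 2 weeks and MM at 1 and 2 weeks, with median log2 fold changes of -1.82, -1.06, -1.77 and -1.98. Id1, a BMP target named after its values were seen, was not called: it had 37.4 to 467 TPM in fresh libraries and group means of 530.2 and 1002 TPM in HM-Wnt at 1 and 2 weeks, and its differences were 0.79 ± 0.77 (edgeR adjusted p = 0.42) and 1.41 ± 0.78 (adjusted p = 0.15). The summed TPM of the list was 699 to 2983 in fresh hepatocytes and 1605 to 3832 in HM-Wnt at 2 weeks. Atoh8, a BMP-responsive transcription factor, changed by -4.98 ± 0.50, -4.55 ± 0.49, -4.36 ± 0.48 and -2.81 ± 0.45, and Smad6, an inhibitory SMAD, by -4.09 ± 0.73, -3.31 ± 0.70, -4.50 ± 0.73 and -3.52 ± 0.71 (edgeR adjusted p from 5.3e-06 to 0.0016 for both). Of 19 hepcidin control genes 7, 8, 5 and 6 were lower and 4, 4, 2 and 3 higher, with medians of -0.11, 0.01, -0.24 and -0.05. Smad9, a SMAD activated by BMP receptors, had the largest fall of these, with a log2 fold change of -7.73 ± 0.92 in HM-Wnt at 1 week (edgeR adjusted p = 2.1e-05), and no library of that group had more than 3 counts. Bmp2, a ligand made by sinusoidal endothelium, fell by 3.55 ± 0.81 (edgeR adjusted p = 0.0028). Smad9 passed the count filter only through the fresh libraries and so had to be lower. Erfe, another gene of the hepcidin control list, had no count in fresh hepatocytes and could only be higher. The 10 sinusoidal endothelial markers summed to 12.2 to 52.5 TPM in fresh hepatocytes and 0.984 to 5.99 TPM in HepOrgs, and 5 of the 10 passed the filter only through the fresh libraries. Their part in these differences was not tested.

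Among 13 genes of iron and heme uptake, 4, 5, 4 and 6 were higher and 4, 3, 3 and 4 lower. Steap3, an iron reductase of endosomes, fell by 2.96 ± 0.36 (edgeR adjusted p = 2.6e-05) in HM-Wnt at 1 week, and Cybrd1, another iron reductase, had no count in fresh hepatocytes and 39 to 373 counts in the HM-Wnt libraries. Cybrd1 is among the 13 genes and could only be higher. Cd163, also among them, passed the count filter only through the fresh libraries and could only be lower. Among 11 tested genes of iron sensing, storage and mitochondrial iron, 6, 6, 6 and 5 were lower and 2, 2, 1 and 1 higher, Fbxl5, a subunit of the ligase that degrades IRP2, being higher by 1.45 ± 0.32, 1.81 ± 0.32, 1.53 ± 0.32 and 1.42 ± 0.32 (edgeR adjusted p from 0.00041 to 0.0031). Heme genes (14) were lower in 5, 7, 3 and 4 cases and higher in 3, 3, 3 and 2. Cpox, an enzyme of heme synthesis, fell by 2.65 ± 0.34 in HM-Wnt at 1 week and Hmox1, which breaks heme down, rose by 2.24 ± 0.61 (edgeR adjusted p = 3.8e-05 and 0.0086). The percentages of all genes called in these comparisons are those given above.

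In the zinc and copper list 6, 7, 7 and 6 of 15 tested genes were higher and 2, 3, 1 and 1 lower. It holds Mt3, a metallothionein best known from brain. This gene passed the count filter only through the HepOrgs, so in these counts it could only be higher. Mt3 had no count in fresh hepatocytes, 14.6, 14.8 and 37.5 TPM after 1 week of HM-Wnt and 23.0, 26.9 and 37.7 TPM at 2 weeks, and against the floor of 3 counts over the fresh group these were at least 223- and 251-fold higher. MM HepOrgs had 0.387, 1.84 and 8.40 TPM at 1 week and 0.757, 0.634 and 3.73 TPM at 2 weeks, at least 29.9- and 14.6-fold higher than fresh hepatocytes, and the difference from HM-Wnt over both times was -3.26 ± 0.57 (edgeR adjusted p = 0.0031). Mt3 thus followed Mt1 and Mt2 in the direction of the medium comparison at a far lower level. Slc30a10, a manganese exporter of the zinc transporter family, changed by -2.87 ± 0.64 and -3.45 ± 0.66 against fresh hepatocytes in HM-Wnt (edgeR adjusted p = 0.0024 and 0.000745), and was higher in MM than in HM-Wnt by 2.00 ± 0.47 (adjusted p = 0.013). Over both times MM was also higher than HM-Wnt in Hfe (0.71 ± 0.14, edgeR adjusted p = 0.0059), Steap3 (1.45 ± 0.20, adjusted p = 0.00077) and the heme carrier Hpx (1.85 ± 0.41, adjusted p = 0.0094), and lower in Cybrd1 (-2.13 ± 0.52, adjusted p = 0.015).

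The genes with the most similar pattern over the 27 libraries were found by Pearson correlation of log2 TMM CPM among 7501 well-expressed genes, as a description in which all points share the table's scaling and the same few conditions. Mt1 and Mt2 followed each other (r = 0.981, and 0.989 over the 24 cultured libraries), with a Mt1 to Mt2 ratio per exon base of 2.7 to 7.19 (median 3.29), and the next gene, Trp53inp1, was well behind (r = 0.760 and 0.797). Tfr2 was most like Pex5 (0.962), Slc25a44 (0.954) and Mtarc2 (0.951). Tfrc was most like the DNA replication genes Mcm3 (0.964), Rrm1 (0.936) and Mcm2 (0.936). For Hamp the closest were Tle5 (0.852), Tef (0.844) and Aldh2 (0.842), for Fth1 Psap (0.848), Atp6v0b (0.800) and Sec22b (0.799), and for Bmp6 Bche (0.835), Ssbp3 (0.833) and Psd3 (0.818). The closest genes of Slc40a1 (Sqor, Smarca2 and Ptprd at 0.883, 0.825 and 0.800) and of Hamp2 (Hibadh, Asl and mt-Nd5 at 0.815, 0.812 and 0.812) rested on the fresh libraries, since over the 24 cultured libraries they fell to between 0.498 and 0.661 and between 0.228 and 0.473. Among the members themselves Hamp and Tfr2 (0.761), Tfr2 and Ftl1 (0.758) and Fth1 and Ftl1 (0.700) were the most alike after the metallothioneins.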

How the data were processed

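RNA was measured by bulk RNA-seq (Smart-seq2 with Nextera libraries, paired-end). Per the labels and the study's methods, the authors aligned the reads with STAR to GRCm39 and counted them per gene with featureCounts, and deposited a table with a raw count and a TPM for each gene and library. Strand and multimapper settings are not given in the sources used here. The deposited counts were tested. The deposited TPM are used for levels. Libraries had 30289364 to 65348596 counts. The table also holds 10 libraries whose names match no sample label, which were not used.

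Counts were tested with edgeR 4.0.16 in R 4.3.3: genes filtered with filterByExpr (minimum count 10, total 15), TMM scaling, glmQLFit and glmQLFTest with prior count 2 and 1 mean per group, and Benjamini-Hochberg adjustment over all genes, with a threshold of 0.05. The 4 fits were: fresh hepatocytes with HepOrgs (15 libraries), HepOrgs (12), assembloids (12) and MM HepOrgs with assembloids (18). The study's own test was DESeq2, run here as an alternative (DESeq2 1.42.0), beside limma 3.58.1 on log2(TPM + 1) and log2(TPM + 0.1), other size factors and filters, other sets of libraries, a replicate block and each library left out. Scripts were tested on simulated counts. Same-numbered libraries of the HepOrgs deviated together (correlations of deviations of 0.127 to 0.503 in 18 of 18 pairs), so there the numbers pair the samples, and the blocked value is given where it changes a call. With fresh hepatocytes added, 19 of 30 pairs passed 0.1, and in the fits with assembloids 6 of 18 and 11 of 45 did, so there the numbers were not taken to pair the libraries. No replicate pair agreed within sampling noise (chi-square per degree of freedom of 86.3 or more).

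Iron, zinc and marker genes were counted by list. Up to 3 genes per list and comparison, those with the largest change past the threshold, could be named. For each member the 3 genes of highest correlation were named. The members and lists were chosen with earlier results of these data known. Promoter windows were taken from RefSeq, and transcripts from GENCODE M39. Intervals and floors cover counting error only.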

Additional observations from a re-analysis of the deposited data

How the results depend on the processing

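Of the counts of members called, 424 alternative values stayed within 1.5 times the reported count and 38 did not. A reported count of 0 that stayed at 0 is among the 424, and many comparisons had a reported count of 0. With all 27 libraries in 1 fit the count against fresh hepatocytes was 3, 2, 2 and 1 (HM-Wnt at 1 and 2 weeks, MM at 1 and 2 weeks), 0 and 0 for MM against HM-Wnt at 2 weeks and over both times (Mt1 -1.58, adjusted p = 0.52, and Mt2 -1.73, adjusted p = 0.51, at 2 weeks), 1 and 3 for fibrotic-like against homeostatic assembloids at 1 week and over both times, and 2 for fibrotic-like assembloids against MM HepOrgs at 1 week. DESeq2 gave 4 for MM at 2 weeks against fresh hepatocytes, 2 for time in MM, 1 and 1 for the assembloids at 1 week and over both times, and 2 for fibrotic-like assembloids against MM HepOrgs at 1 week. It called 43.6%, 2.37%, 6.08%, 12.4% and 14.5% of all genes in these comparisons, in the same order. Requiring 10 counts in every library gave 1 for MM at 2 weeks and 1 for fibrotic-like assembloids against MM HepOrgs at 1 week, where log2(TPM + 1) gave 4 and 3, with 48.6% and 18.6% of the genes tested called. Fitting only the groups compared gave 1 for the assembloids at 2.5 weeks, and 2 and 2 for fibrotic-like assembloids against MM HepOrgs at 1 week and late. Without the 3 hepatocyte-poor libraries, chosen after seeing the data, the assembloid counts were 3, 2 and 5 (1 week, 2.5 weeks, both), and 3 and 2 against MM HepOrgs (1 week, late). There 17.7%, 1.08%, 26.1%, 30.5% and 9.65% of all genes were called, in the same order. Leaving out 1 library at a time moved the count between 3 and 6 for HM-Wnt at 2 weeks, 2 and 5 for MM at 1 week and 1 and 4 for MM at 2 weeks against fresh hepatocytes, between 0 and 1 and 0 and 3 for the assembloids at 1 week and over both times, and between 0 and 2 for fibrotic-like assembloids against MM HepOrgs at 1 week. The low end came without HM-Wnt 2 weeks replicate 1, without fresh replicate 3 or MM 1 week replicate 1 or 2, and without MM 2 weeks replicate 1 or 2, in that order of comparisons, and the 4 without fresh replicate 1. The assembloid counts of 1 and 3 came without homeostatic 1 week replicate 2, and against MM HepOrgs the counts were 1, 2 and 1 without homeostatic 1 week replicate 1, 2 and 3. Single calls were also gained by Bmp6 in HM-Wnt at 2 weeks and MM at 1 week without HM-Wnt 2 weeks replicate 3, by Fth1 in MM at 1 week and between the media over both times without MM 2 weeks replicate 3, and by Tfrc between the media without HM-Wnt 1 week replicate 3. For the other settings in this paragraph the share of all genes called is not given, so those counts cannot be set against it. The cause of these changes was not tested.

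Of the single-gene values, 1313 kept their direction and side of the threshold, 82 gained and 70 lost a call, and 6 changed sign, all in MM at 2 weeks against fresh hepatocytes: Mt1 was 1.26 on log2(TPM + 1), 1.26 on log2(TPM + 0.1), 0.16 with the replicate block and from -0.67 to 1.65 with 1 library left out (1.65 without fresh replicate 1), and Mt2 ran from -0.21 (without fresh replicate 2; -0.12 without replicate 3) to 2.61 (without replicate 1). With the replicate block in the fit with fresh hepatocytes, where 19 of 30 same-numbered pairs correlated above 0.1 and 14 of 15 libraries correlated best with their own number, a hint from the data and not the design, Mt2 was called in HM-Wnt at 1 week (2.24, adjusted p = 0.027), Bmp6 in HM-Wnt at 2 weeks and MM at 1 week (adjusted p = 0.030 and 0.036), Hamp (-3.33, adjusted p = 0.036) and Tfr2 (adjusted p = 0.038) in MM at 2 weeks, and Hamp2 was lost there (adjusted p = 0.056). Apart from the Slc40a1 calls between media, the block changed no other call among the HepOrgs. On log2(TPM + 1) the split of all calls for MM against HM-Wnt was 263 higher and 79 lower at 1 week (229 and 158 on counts) and 390 and 857 at 2 weeks (889 and 599), and for fibrotic-like assembloids against MM HepOrgs at 1 week 1898 and 124 (52 and 56). At fewer than about 10 counts, as for Hamp2 and Hamp in fibrotic-like assembloids at 1 week, depth limits what can be seen.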
